A study of Mus musculus with 12 samples.

Results

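The 36 aminoacyl-tRNA synthetase genes studied here encode the enzymes that load amino acids onto transfer RNAs (tRNAs). They were chosen by name, as 20 enzymes of the cytosol and 16 of the mitochondrion, out of 16425 genes in the deposited table, and all 36 were listed there. RNA was sequenced from wild-type mouse embryonic fibroblasts (MEFs), connective tissue cells grown from embryos. The cells had been infected with a guide RNA that targets the site in Pvt1 to which p53 binds, called the response element below, or with a non-targeting control guide called sgtom, and each kind was left untreated or kept in 0.5 µM doxorubicin, a DNA-damaging drug, for 24 h. The table covers 6 libraries, all of wild-type cells treated with doxorubicin: 3 with the guide against the response element and 3 with the control guide. No untreated sample (6 in the series) was analysed here, and no value below is a response to the drug. The labels speak of infected cells, name no clone and give no share of edited alleles. The labels call the 3 libraries of a group biological replicates without saying how the cultures were kept apart, so p-values measure the spread between these samples only.

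Each synthetase recognises 1 amino acid and the tRNAs that match it, and the charged tRNA then delivers the amino acid to the ribosome. The cytosol and the mitochondrion make proteins separately, so most amino acids have a pair of nuclear genes, and the name of the mitochondrial enzyme ends in 2. KARS (lysine) and GARS (glycine) make both forms from a single gene, and QARS (glutamine), which has no mitochondrial counterpart among these genes, is set beside them. EPRS carries the glutamate and proline activities in a single chain. FARSA and FARSB are the subunits of the phenylalanine enzyme, and 8 of the cytosolic enzymes (DARS, EPRS, IARS, KARS, LARS, MARS, QARS and RARS) sit together in the multisynthetase complex. Many cytosolic synthetase genes are known targets of ATF4, the transcription factor of amino acid shortage, and of MYC. Pvt1 lies next to Myc and its p53-induced isoform is known to restrain Myc, and the series asks what follows in damaged cells when the p53 site is disrupted.

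Sequences around the binding motifs of both factors are shown because the genes that carry them recur in the results. RefSeq promoter entries (build GRCm38.p6, 250 bases before to 50 bases after the start of a gene) were matched for 26 of the 36 genes. In 20 of these 26, bases 6 to 30 after the start were found in a GENCODE transcript of the gene, and in the others they were not. CARS, HARS, LARS, MARS, NARS, RARS, VARS, WARS, HARS2 and PARS2 had no entry used here. The C/EBP-ATF response element, searched as TGATGNAAN on both strands, was found in 5 of the 26 promoters (19.2%), against 1299 of all 32851 promoter entries (3.95%). The 5 genes were all cytosolic: AARS, GARS, IARS, TARS and YARS. The 29-base windows of 4 of them run 5′ to 3′ along the gene, with the match in capitals. All but that of YARS lie on the opposite strand. Those of IARS and YARS begin their match after the annotated start.
GARS, chr6:55037960-55037988: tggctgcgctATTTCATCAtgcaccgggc
IARS, chr13:49682126-49682154: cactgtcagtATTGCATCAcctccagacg
TARS, chr15:11399656-11399684: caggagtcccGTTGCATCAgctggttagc
YARS, chr4:129189896-129189924: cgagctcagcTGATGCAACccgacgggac

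The E-box CACGTG, the letters that MYC with its partner MAX binds best, reads alike on both strands and shares no bases with the first motif. It was found in 5 of the 26 promoters (19.2%), against 2349 of all 32851 entries (7.15%). The background again counts every entry. AARS, IARS and TARS carried both motifs, FARSB and the mitochondrial EARS2 the E-box alone. The 26-base windows of 4 of these genes have the E-box in capitals. A match of letters is a description and not a shown binding site.
EARS2, chr7:122067050-122067075: cgaaggagccCACGTGtgtgtttcta
FARSB, chr1:78488921-78488946: agacaggcatCACGTGagacagccca
IARS, chr13:49682051-49682076: ccaatcgccaCACGTGttgtttgtag
TARS, chr15:11399624-11399649: cgcctgtggcCACGTGgcgcacgcgc

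The deposited values are CPM, reads per gene that the authors divided by a scaled library size. The libraries held 50091418 to 66132317 reads in genes. All 36 synthetase genes passed the filter on low values. The fewest reads of any synthetase gene in any library were 297, where counting error alone is 5.80% of the value. Libraries with equal replicate numbers deviated together (correlation of deviations 0.739 to 0.869, against at most 0.203 for unequal numbers), so numbers were taken to pair libraries across guides. Fibroblast markers were the most abundant of the marker lists, with FN1 alone at a mean of 21016 CPM. The 9 markers summed to 36996 to 38120 CPM with the guide against the response element and 38237 to 38790 CPM with the control guide. These sums do not overlap, and their part in the results below was not tested. Of 17 macrophage markers 15 were listed, and they summed to 398, 113 and 143 CPM in replicates 1, 2 and 3 of the guide against the response element and to 251, 120 and 142 CPM in those of the control guide. Both replicate 1 libraries thus stood apart. Markers of other cell types were also present. Over all 6 libraries, the 4 listed endothelial markers summed to 52.6 to 75.0 CPM and the 4 listed epithelial markers to 54.2 to 99.0 CPM. The 3 listed muscle markers summed to 28.8 to 48.3 CPM. PVT1, the gene that the guide targets, had 8.04, 5.93 and 5.40 CPM with the guide against the response element and 16.4, 11.7 and 12.1 CPM with the control guide. MYC had 43.5, 48.6 and 53.8 CPM with the guide against the response element and 28.7, 27.0 and 35.6 CPM with the control guide.

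Cytosolic synthetase messages were far more abundant than the mitochondrial ones. Levels between genes are compared here as mean CPM per kilobase of the longest annotated mRNA. On that scale the 20 cytosolic genes had a median of 29.0 and ran between 14.5 for FARSB and 88.8 for NARS, the asparagine enzyme. The 15 mitochondrial genes other than LARS2 had a median of 4.94 and ran between 1.38 for MARS2, the methionine enzyme, and 15.8 for IARS2, the isoleucine enzyme. In 16 of 17 pairs of genes for the same amino acid, the cytosolic gene was the higher in both groups, and the exception was LARS with LARS2. The median ratio over the pairs was 6.20 with the guide against the response element and 6.14 with the control guide. The ratio was widest for NARS over NARS2, at 39.8 with the guide against the response element and 38.3 with the control guide, and narrowest above 1 for IARS over IARS2, at 1.87 with the guide against the response element and 1.77 with the control guide. The level of MARS2 was divided by the length of an 11.3 kb annotated mRNA.

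**Figure D1:**
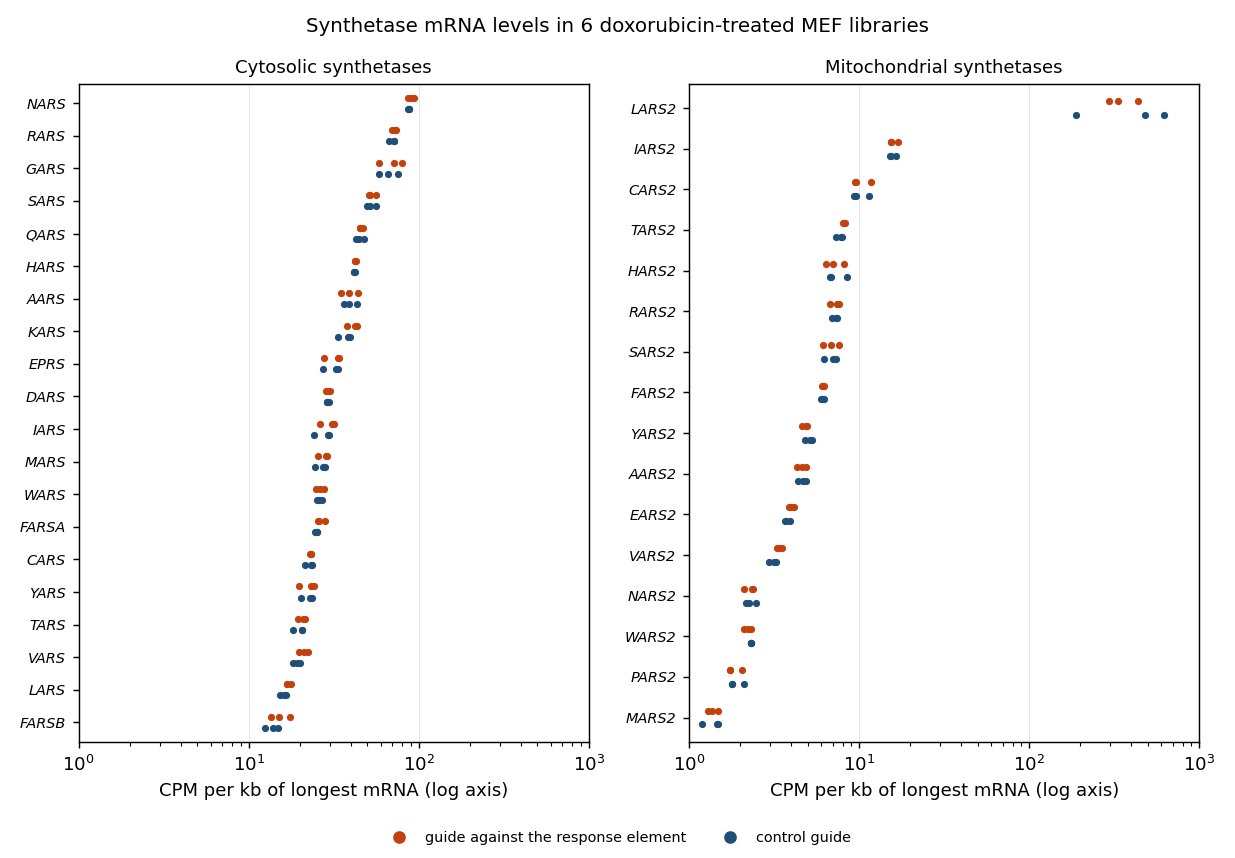
Level of each synthetase gene in each of 6 libraries, as CPM per kilobase of the longest annotated mRNA on a log axis, with cytosolic genes left and mitochondrial genes right. Points in the upper row of a gene are the 3 libraries of the guide against the response element and points in the lower row the 3 of the control guide. The cytosolic genes lie between 14.5 and 88.8 on average, and LARS2 stands alone at 391.

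No synthetase gene passed the test between the guides. In limma on log2(CPM + 0.5), with p-values adjusted over all 14440 genes tested (Benjamini-Hochberg, threshold 0.05), 0 of 36 were called, as were 0% of all genes. At an unadjusted p under 0.05 limma had 0 of 36, against 0.346% of all genes. This limma fit did not use the pairing of replicate numbers, and it did not call PVT1 or MYC either (adjusted p = 0.99997 for both). EdgeR and DESeq2 on the recovered reads, also unpaired, had 0 of 36 and called no synthetase gene. The adjusted p of each gene was 0.99997 in limma, and the authors' deposited table gives a false discovery rate of 1 for each. A fit with the replicate number as a block called both PVT1 and MYC (limma, adjusted p = 1.40e-04 and 5.49e-04). It called 0.0346% of all genes and again 0 of 36 synthetase genes. At an unadjusted p under 0.05 it had 5 of 36 (13.9%), against 6.68% of all genes. All 5 were cytosolic and had higher means with the guide against the response element: KARS, VARS, FARSB, IARS and LARS. In bulk RNA, fewer cells of a type and less RNA per cell cannot be told apart.

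Most cytosolic genes had slightly higher values with the guide against the response element, while the mitochondrial genes split evenly around 0. The difference between the classes was not tested. Of the 20 cytosolic genes, 19 had a log2 fold change above 0, with a median of 0.05 and a range of −0.01 for AARS to 0.16 for FARSB. Of the 16 mitochondrial genes, 8 lay above 0 and 8 below, with a median of 0.00. Over all genes tested, 49.7% lay above 0 with a median of 0.00, and over the 3514 genes with a mean of 50 to 300 CPM, the range of most cytosolic synthetases, 46.2% did. The cytosolic median was 0.08, 0.06 and 0.03 in the pairs of replicates 1, 2 and 3, and the mitochondrial median 0.03, 0.01 and 0.00, also above 0 in each pair. Cytosolic synthetase genes summed to 2126, 2353 and 2273 CPM with the guide against the response element and to 2041, 2286 and 2211 CPM with the control guide. These sums overlap between the groups, while each pair has the higher sum with the guide against the response element.

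How far the cytosolic count rests on single libraries was read by leaving each out. The genes above 0 numbered 19, 17 and 19 of 20 without the pair of replicates 1, 2 or 3. Where 1 library was left out and its partner kept, the count ran between 11 of 20, without replicate 1 of the control guide, and 20 of 20, without replicate 1 of the guide against the response element or replicate 2 of the control guide. The cytosolic median was 0.01 without replicate 1 of the control guide and 0.10 without replicate 1 of the guide against the response element. It was 0.02 without replicate 2 of the guide against the response element and 0.07 without replicate 2 of the control guide. The replicate 1 libraries, where many of these genes were low in both groups, therefore move the value most once they are unpaired.

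FARSB, KARS and VARS had the largest cytosolic differences. FARSB (chr1:78417975-78488897, GRCm38), the beta subunit of the phenylalanine enzyme, had 27.7, 35.7 and 30.6 CPM in replicates 1 to 3 of the guide against the response element and 25.3, 30.1 and 28.2 CPM in those of the control guide. The groups overlap, but within each pair the guide against the response element is higher. The difference was 0.16 ± 0.11 on the log2 scale (SE, limma), and 0.05 was its SE with the block (unadjusted p = 0.00487, adjusted p = 0.589 in limma). The gene shares 248 exon bases on the opposite strand with Sgpp2, which had a mean of 0.36 CPM.

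KARS (chr8:111993443-112011323), the lysine enzyme of both compartments, had 83.4, 92.2 and 94.4 CPM with the guide against the response element and 73.5, 86.2 and 84.6 CPM with the control guide. Its groups overlap through the low replicate 1 library of the guide against the response element. The log2 fold change was 0.15 ± 0.08 (SE), with an SE of 0.03 in the blocked limma fit (unadjusted p = 0.00136, adjusted p = 0.557). KARS was the only synthetase gene past the threshold in any alternative run here, and in only 1 of them: the blocked fit without replicate 2 (log2 fold change 0.17, adjusted p = 0.0165). That fit called 156 of 14087 genes (1.11%), more than the other blocked fits run here.

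VARS (chr17:35000987-35016322), the valine enzyme, had 81.5, 87.8 and 92.1 CPM with the guide against the response element and 75.1, 79.2 and 82.7 CPM with the control guide. The groups overlap, and the 3 pairs gave log2 differences of 0.12, 0.15 and 0.15. The blocked limma fit gave 0.14 ± 0.03 (SE, unadjusted p = 0.00139, adjusted p = 0.557). IARS (chr13:49682100-49734267), the isoleucine enzyme, had 117, 137 and 141 CPM with the guide against the response element and 108, 129 and 131 CPM with the control guide. Each pair again has the higher value with the guide against the response element, though the groups overlap. The log2 fold change was 0.10 ± 0.03 (SE, blocked limma fit, adjusted p = 0.648). Without the block the SE was 0.07 for VARS and 0.11 for IARS. A processed pseudogene of IARS, Gm4849, matches it over 1656 bases at 96.0% identity and is not among the listed genes, so reads that it shares with IARS could not be assigned here.

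Of the 36 genes, 4 (11.1%) had groups that do not overlap, all higher with the guide against the response element, where 2.15% of all genes tested did so, and 0 did so in the lower direction, against 1.47%. FARSA (chr8:84856989-84869257), the alpha subunit of the phenylalanine enzyme, had 47.5, 51.5 and 46.7 CPM with the guide against the response element and 45.0, 46.3 and 46.0 CPM with the control guide. LARS (chr18:42202298-42262194), the cytosolic leucine enzyme, had 66.6, 70.2 and 66.7 CPM with the guide against the response element and 61.0, 64.2 and 65.7 CPM with the control guide. In both genes the gap between the nearest libraries of the groups was about 1 CPM or less. The log2 fold changes were 0.08 ± 0.06 for FARSA and 0.09 ± 0.06 for LARS (SE, limma, adjusted p = 0.99997 for both). With the block the SE was 0.04 for each (limma, adjusted p = 0.739 for FARSA and 0.725 for LARS).

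The other pair of genes without overlap was mitochondrial. TARS2 (chr3:95739976-95760206), the threonine enzyme, had 26.8, 26.5 and 26.0 CPM with the guide against the response element and 25.2, 23.5 and 25.6 CPM with the control guide. VARS2 (chr17:35655634-35667592), the valine enzyme, had 14.6, 15.6 and 14.9 CPM with the guide against the response element and 13.97, 14.4 and 13.1 CPM with the control guide. Its log2 fold change of 0.12 ± 0.07 (SE) was the highest of the mitochondrial genes, and it did not pass in limma (adjusted p = 0.99997, and 0.742 with the block). VARS2 shares 465 exon bases with an antisense gene, Gm20483, and whether reads were counted by strand is not given in the sources used here.

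The other mitochondrial genes lay on both sides of 0. EARS2, the glutamate enzyme with the E-box shown above, had 8.46, 7.92 and 8.10 CPM with the guide against the response element and 7.60, 7.49 and 8.07 CPM with the control guide, and its log2 fold change was 0.08 ± 0.08 (SE, limma, adjusted p = 0.99997). The lowest outside LARS2 was YARS2, the tyrosine enzyme, with 12.995, 13.7 and 13.9 CPM with the guide against the response element and 14.8, 13.4 and 14.3 CPM with the control guide, a log2 fold change of −0.07 ± 0.07 (SE, limma, adjusted p = 0.99997). WARS2, the tryptophan enzyme, averaged 9.75 ± 0.50 CPM with the guide against the response element and 10.2 ± 0.06 CPM with the control guide (SD, n = 3 each). The groups overlap in all 3 genes. IARS2, CARS2, MARS2, RARS2 and FARS2 lay between 0.00 and 0.02 on the log2 scale, and SARS2, NARS2, AARS2, HARS2 and PARS2 between −0.04 and 0.00. IARS2 shares 2034 exon bases on the opposite strand with Rab3gap2, FARS2 shares 501 with Nrn1 and EARS2 shares 89 with Ubfd1. Ubfd1 had a mean of 67.6 CPM. The levels of these synthetase genes are uncertain to that extent.

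Higher in all 3 pairs were 14 of 36 genes (38.9%), against 14.4% of all genes tested, and lower in all 3 was 1 of 36 (2.78%), also against 14.4%. The 14 comprised 10 cytosolic genes (EPRS, FARSA, FARSB, GARS, IARS, KARS, LARS, MARS, TARS and VARS) and 4 mitochondrial genes (EARS2, IARS2, TARS2 and VARS2). The gene that was lower in all 3 was PARS2, the mitochondrial proline enzyme, with 6.26, 5.32 and 5.27 CPM with the guide against the response element and 6.39, 5.46 and 5.47 CPM with the control guide. At 297 reads in the shallowest library, the differences within its pairs are smaller than counting error.

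The cytosolic genes can also be grouped by kind of enzyme. The 8 members of the multisynthetase complex all lay above 0, with a median log2 fold change of 0.05, and the 12 outside it had 11 above 0 and a median of 0.03. The 9 enzymes of class I, whose active site holds a Rossmann fold, all lay above 0 (median 0.05), as did 9 of the 10 of class II (median 0.05), EPRS being of both. KARS, GARS and QARS, the genes set beside both compartments, lay at 0.15, 0.06 and 0.03. The remaining cytosolic genes, CARS, DARS, EPRS, HARS, MARS, NARS, RARS, SARS, TARS, WARS and YARS, lay between 0.01 and 0.06. NARS, the most abundant of them per kilobase, averaged 248 ± 10.4 CPM with the guide against the response element and 239.7 ± 1.72 CPM with the control guide (SD, n = 3 each). MARS shares 68 exon bases on the opposite strand with Ddit3. GARS averaged 166 ± 25.5 CPM with the guide against the response element and 159 ± 21.4 CPM with the control guide (SD, n = 3 each). Its pairs differed by 0.01, 0.07 and 0.10 on the log2 scale, all higher with the guide against the response element, and it was not called with the block (limma, adjusted p = 0.761).

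**Figure D2:**
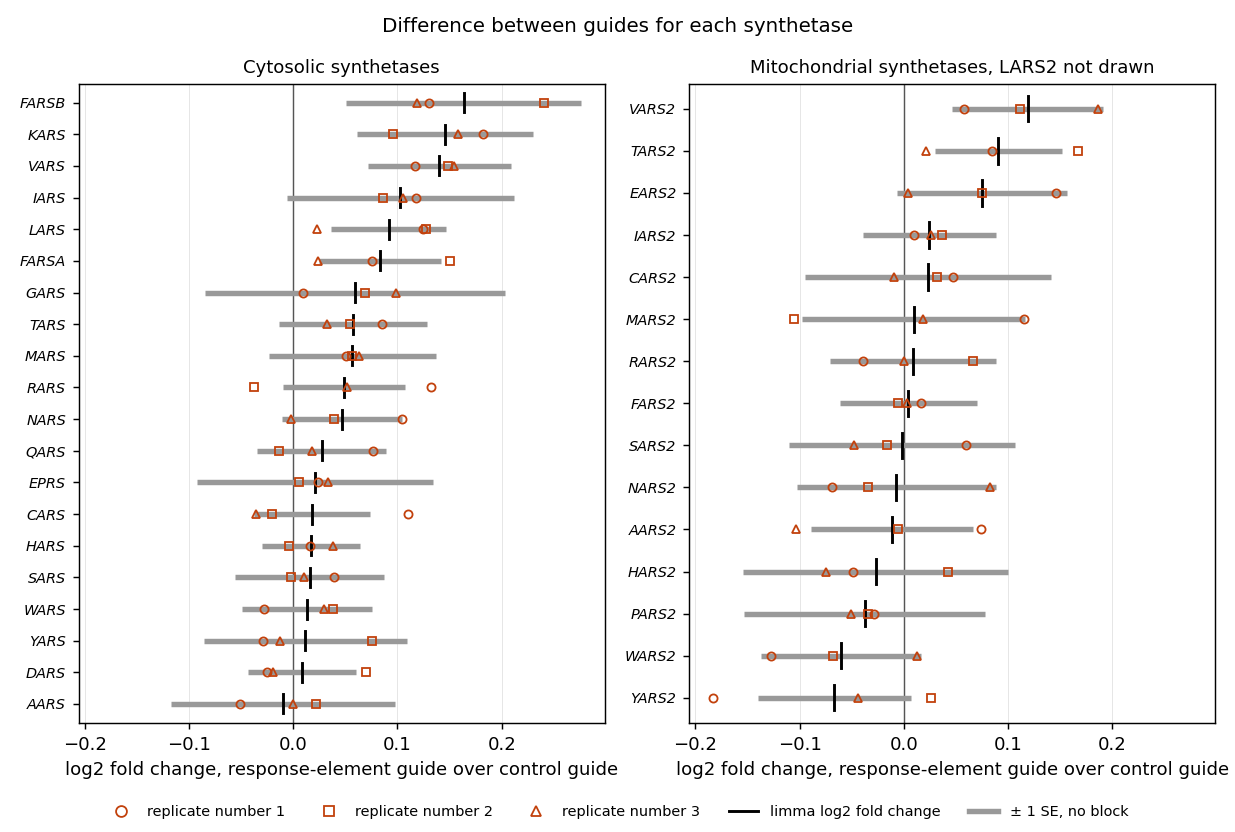
Log2 fold change of each synthetase gene, guide against the response element over control guide, with cytosolic genes left and mitochondrial genes right, sorted by size. Black ticks are the limma values, grey bars 1 SE on either side without a block, and the 3 open symbols the pairs of libraries with equal replicate number. The cytosolic genes have 19 of 20 ticks above 0 and the 15 mitochondrial genes drawn have 8.

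LARS2 stood apart in level and in spread. LARS2 (chr9:123366927-123462666), the mitochondrial leucine enzyme, had 1144, 1294 and 1701 CPM with the guide against the response element and 733, 2407 and 1864 CPM with the control guide. The libraries of the guide against the response element lie within the range of the others, whose highest and lowest libraries differ 3.29-fold. Its SD was 20.9% of the mean with the guide against the response element and 51.2% with the control guide, where the highest value for any other member was 15.3%. The log2 fold change was −0.13 ± 0.44 (SE, limma, adjusted p = 0.99997), with pairs at 0.64, −0.89 and −0.13. The value depends on the method: it was −0.28 in edgeR and in DESeq2 on the recovered reads (adjusted p = 0.99994 and 0.99998), and the authors' deposited table gives −0.27. With libraries left out it ran between −0.64 without replicate 1 of the control guide and 0.26 without replicate 2 in the blocked fit, and it was called in none of these fits.

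At 391 CPM per kilobase, LARS2 lay 24.8-fold above IARS2, the next mitochondrial gene. It held 79.7%, 81.6% and 85.8% of the summed CPM of all 16 mitochondrial genes in the libraries of the guide against the response element, and 71.7%, 89.4% and 86.9% in those of the control guide. The 6 libraries fell in the same order for LARS2 as for Gm42418, a noncoding gene placed over ribosomal RNA sequence. Gm42418 had 455, 595 and 685 CPM with the guide against the response element and 407, 772 and 698 CPM with the control guide. The ratio of LARS2 to Gm42418 was not fixed, at 2.18 to 2.52 with the guide against the response element and 1.80 to 3.12 with the control guide. Gm26917, another listed noncoding gene, had a different order, with its highest library at 93.3 CPM in replicate 3 of the guide against the response element. The part of ribosomal RNA reads in the LARS2 value was not tested. No other gene shares exon bases with LARS2 in the annotation. Without LARS2 the mitochondrial genes summed to 291, 291 and 282 CPM with the guide against the response element and to 289, 285 and 281 CPM with the control guide. Here too each pair had the slightly higher sum with the guide against the response element. Their median log2 fold change stayed at 0.00 with 8 of 15 above 0.

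**Figure D3:**
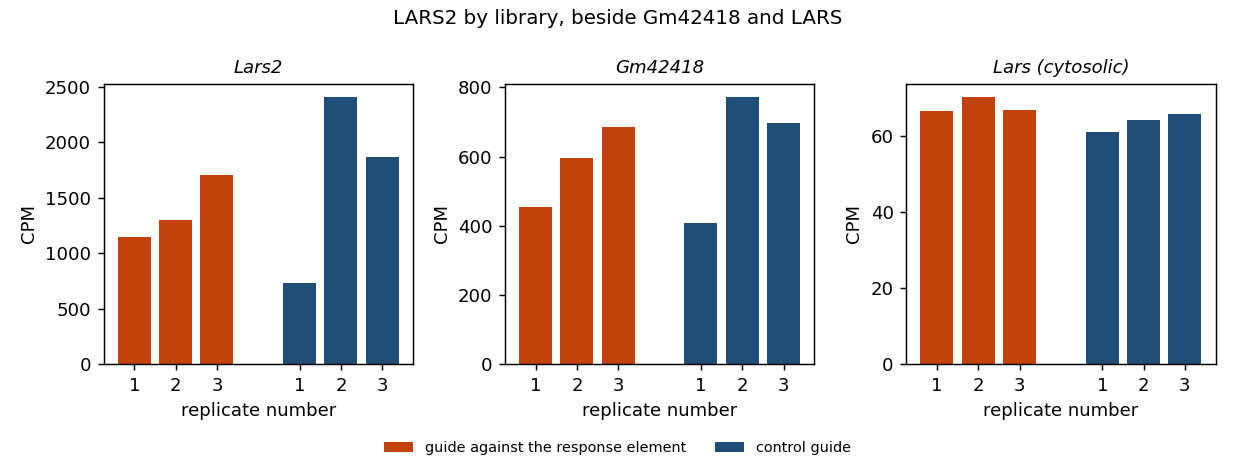
CPM of LARS2, of the noncoding gene Gm42418 and of LARS in each library, with replicates 1 to 3 of the guide against the response element in the left group of bars and those of the control guide in the right group. LARS2 runs between 733 and 2407 CPM and Gm42418 between 407 and 772 CPM with the libraries in the same order, while LARS runs between 61.0 and 70.2 CPM.

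The synthetase genes differed more between replicate numbers than between guides. Replicate number held 79.9% of the summed variance of the cytosolic genes on the log2 scale and the guide 15.7%, with 80.8% and 8.98% for the mitochondrial genes without LARS2, and 86.9% and 4.59% over all genes tested. In a limma F-test for replicate number in a model with guide, 16 of 36 genes (44.4%) were called at an adjusted p under 0.05, against 48.6% of all genes tested, so that the count is near the background. Called genes with their lowest level in replicate 1 were 12 of 36 (33.3%), against 21.7% of all genes, and those with their highest level there were 3 of 36, against 20.5%. Of the 12, 11 were cytosolic: AARS, EPRS, FARSB, GARS, IARS, KARS, MARS, SARS, TARS, VARS and YARS. These 11 are 55% of the 20 cytosolic genes. Among the 3514 genes with a mean of 50 to 300 CPM, 61.2% were called, and 1077 were called with their lowest level in replicate 1. The mitochondrial genes split, with MARS2 lowest in replicate 1, CARS2, HARS2 and SARS2 highest there, and IARS2 called with replicate 1 in the middle. Without replicate 1, the F-test called 4 synthetase genes (AARS, GARS, SARS and IARS2) and 22.4% of all genes, and limma without trend called 8 synthetase genes and 30% of all genes with all replicates kept.

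GARS (chr6:55038007-55079500) differed most among the cytosolic genes. It had 139, 190.0 and 169 CPM in replicates 1, 2 and 3 of the guide against the response element and 138, 181 and 158 CPM in those of the control guide. The order of the replicates is the same in both groups. Replicate 1 fell by 0.33 on the log2 scale relative to the mean of the other two (limma F-test, adjusted p = 2.31e-05). AARS (chr8:111033144-111057664), the alanine enzyme, had 201, 253 and 224 CPM with the guide against the response element and 209, 249 and 224 CPM with the control guide. EPRS (chr1:185363044-185428360) had 137, 166 and 165 CPM with the guide against the response element and 135, 165 and 161 CPM with the control guide. AARS shares 1326 exon bases on the same strand with Exosc6, which is not among the listed genes. Both genes were lowest in replicate 1 with each guide, with differences from the other replicates of −0.21 for AARS and −0.28 for EPRS on the log2 scale, and both passed the F-test (adjusted p = 3.13e-04 and 1.41e-04 in limma). Over the 11 called cytosolic genes the same difference ran between −0.33 for GARS and −0.10 for SARS.

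The opposite pattern was seen in 3 mitochondrial genes. HARS2 (chr18:36783008-36792562), the histidine enzyme, had 27.2, 23.4 and 21.3 CPM with the guide against the response element and 28.2, 22.7 and 22.4 CPM with the control guide. CARS2 (chr8:11513977-11550783), the cysteine enzyme, had 22.4, 18.3 and 18.1 CPM with the guide against the response element and 21.7, 17.9 and 18.2 CPM with the control guide. Replicate 1 was the highest in each group for both genes, by 0.30 for HARS2 and 0.28 for CARS2 on the log2 scale (limma F-test, adjusted p = 0.00181 and 0.00471). Their cytosolic partners did not share it. HARS had 83.5, 83.7 and 85.5 CPM with the guide against the response element and 82.5, 84.0 and 83.3 CPM with the control guide, and was not called (adjusted p = 0.875). HARS and HARS2 lie head to head and share 195 exon bases on opposite strands, and CARS2 shares 422 with Naxd. Whether reads in those stretches were counted to 1 of the genes or set aside as ambiguous is not known.

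The 5 genes with a C/EBP-ATF element in their promoter entry were all among the cytosolic genes called lowest in replicate 1. All 5 are cytosolic, a class in which such calls were common, and of the 7 other cytosolic genes with a promoter entry 4 were so called. Over all genes tested the share was 21.7%. Of the 3514 genes with a mean of 50 to 300 CPM, 1077 were so called. The 4 cytosolic genes with an E-box were all called lowest in replicate 1, as were 5 of the 8 cytosolic genes without it, and 3 of the 4 also carry the C/EBP-ATF element. ATF4 itself had 124, 133 and 120 CPM with the guide against the response element and 129, 130 and 121 CPM with the control guide, and was not called between replicate numbers (limma, adjusted p = 0.0667). Of 21 listed genes of the amino acid stress response, known as ATF4 targets or partners, 17 (81.0%) were called between replicate numbers, against 48.6% of all genes. Of the 21, 8 were called lowest in replicate 1, against 21.7% of all genes, and 6 highest, against 20.5%. Their median difference of replicate 1 from the mean of the other replicates was 0.04 on the log2 scale. ASNS, asparagine synthetase, was lowest in replicate 1, with 32.9, 39.3 and 37.0 CPM with the guide against the response element and 32.6, 37.5 and 35.6 CPM with the control guide. The macrophage markers given above were highest in replicate 1 for all 15, and 12 of the 15 were called, against 20.5% of all genes called with their highest level there. The part of macrophage RNA in the synthetase values was not tested.

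**Figure D4:**
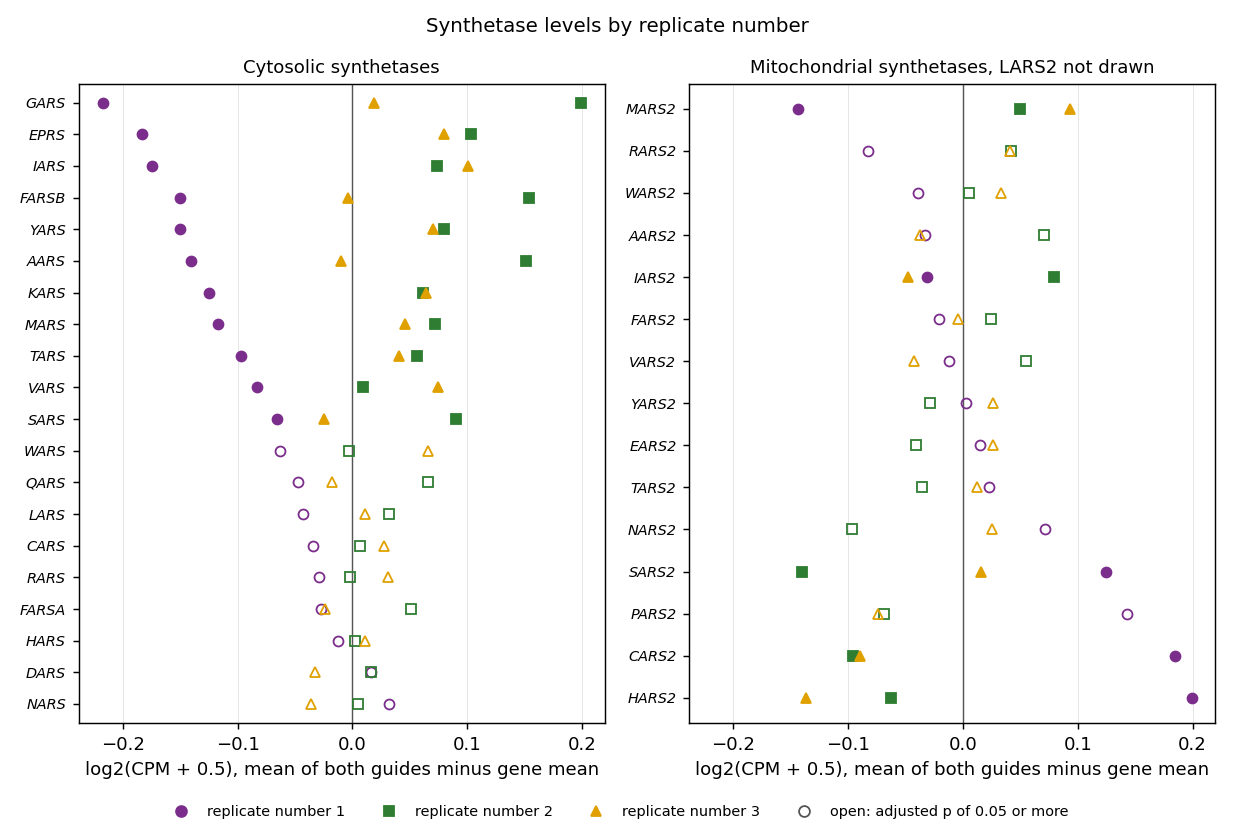
Mean log2(CPM + 0.5) of both guides in each replicate number, as the difference from the mean of the gene, with cytosolic genes left and mitochondrial genes right. Filled symbols mark genes called by the limma F-test for replicate number. Replicate 1 is the lowest for 18 of the 20 cytosolic genes, and for HARS2 and CARS2 it is the highest. It is the lowest for 5616 of all 14440 genes tested and for 1594 of the 3514 with a mean of 50 to 300 CPM.

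Genes that work with the synthetases also had small differences between the guides. The complex's scaffold genes AIMP1, AIMP2 and EEF1E1 lay above 0 in 3 of 3, with a median log2 fold change of 0.01, and AIMP1 averaged 42.9 ± 3.39 CPM with the guide against the response element and 42.5 ± 2.36 CPM with the control guide (SD, n = 3 each). The mitochondrion charges its glutamine tRNA by an amidotransferase in place of a synthetase. Of the genes for that enzyme and for the formylation of the initiator tRNA, 4 of 5 were listed (GATB, GATC, QRSL1 and MTFMT), and all 4 lay above 0, between 0.01 and 0.07. The 8 genes of proofreading and of selenocysteine tRNA had 5 above 0 with a median of 0.04, and the 4 of tRNA export and delivery had 3 above 0 with a median of 0.03. Limma called 0 of these 19 genes with or without the block, and 0 had an unadjusted p under 0.05 in either fit.

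Genes of tRNA processing and modification gave 29 of 37 above 0, with a median log2 fold change of 0.03, and 0 of 37 were called by limma with or without the block (1 and 4 had an unadjusted p under 0.05, against 0.346% and 6.68% of all genes). Of the 37, 4 had groups that do not overlap, all higher with the guide against the response element, where 2.15% of all genes did so: ELAC2, CTU1, CTU2 and QTRT1. In the lower direction 0 of 37 did so, against 1.47%. ELAC2, which trims the 3′ end of precursor tRNAs, had 31.9, 33.5 and 32.2 CPM with the guide against the response element and 28.0, 28.4 and 27.8 CPM with the control guide, without passing the test (limma, adjusted p = 0.99997, and 0.440 with the block). NSUN2, a tRNA cytosine methyltransferase, had 82.4, 94.6 and 92.6 CPM with the guide against the response element and 74.7, 83.4 and 87.6 CPM with the control guide (adjusted p = 0.570 in the blocked limma fit). The ATF4 list had 10 of 21 above 0 and a median of −0.01, and the amino acid transporters 8 of 12 and a median of 0.02.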

How the data were processed

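Libraries came from polyadenylated RNA of MEFs by a stranded kit, per the labels. The submitters' processing notes name build mm10, HTSeq 0.6.1 and edgeR 3.22.3, beside StringTie 1.2.4 and TopHat2 2.0.14, without roles. The deposited CPM values were made by the authors with edgeR, per the file headers. The authors' log2 fold changes and their p-values and false discovery rates were deposited in the same table. Not used were 6 columns of pseudo-counts. Of 16427 entries, 2 name no gene: ambiguous (0.543% to 1.58%) and no-feature reads (8.06% to 8.94%). In replicates 1 to 3, no-feature reads were 8.66%, 8.41% and 8.94% with the response-element guide. They were 8.24%, 8.06% and 8.33% with the control guide, without overlap. Ambiguous reads were 1.58%, 0.926% and 1.16% with the response-element guide and 0.543%, 0.784% and 1.36% with the control guide. The part of these reads in the results was not tested.

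CPM came out as whole multiples of 1 read (100% within 0.01), and these recovered reads served edgeR 4.0.16 and DESeq2 1.42.0 as alternatives. The main test was limma 3.58.1 (R 4.3.3) on log2(CPM + 0.5), with trend and robust settings, for the 14440 genes that reached 0.5 CPM in 3 or more libraries, adjusted by Benjamini-Hochberg over all of them. Its code was tested on simulated data. A fold change on this scale understates that of low genes. The replicate numbers stand in the sample titles, and the pairing rests on the correlations given above. Intervals of counts cover counting error only.

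Gene positions and lengths come from GENCODE M21 (GRCm38), promoter entries from RefSeq. All synthetase genes are named, with up to 4 genes of each list by smallest unadjusted p, and others only to place a result. CTU1 and ASNS were named after their values were seen. The members and lists were chosen with earlier results of these data known.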

Additional observations from a re-analysis of the deposited data

How the results depend on the processing

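Between guides, the count of all genes called was 0 in limma and changed to 1 with DESeq2, and to 5 with the replicate block, 3 with the block in edgeR, 5 with the block after quantile normalization and 4 with the block after centring on the library median. In the blocked fit without replicate 1, 2 or 3 it was 15, 156 and 8. The count of synthetase genes called was 0 and ran between 0 and 1 with replicates left out, the 1 being KARS without replicate 2 in the blocked fit. The block changed no other call of a synthetase gene. With replicates left out, the cytosolic median of 0.05 ran between 0.0064 and 0.098 and the mitochondrial median of 0.00 between −0.0095 and 0.022. Over 828 comparisons of a synthetase gene with an alternative, 60 changed sign, 58 of them with a replicate left out, and 1 passed 0.05. Centring moved the median of all genes by −0.0015. Between replicate numbers, limma without trend called 4328 genes and 8 synthetase genes, and left-out replicates gave 3164 to 6852 genes and 4 to 14 synthetase genes, the 4 without replicate 1 (AARS, GARS, IARS2 and SARS). The causes were not tested. Depth limits mainly the mitochondrial genes with the fewest reads. LARS2 was left out of its class as a choice made after seeing the data.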

Other observations

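In log2 fold change between the guides, where values above 0 are higher with the response-element guide, 4 of 10 genes of MYC and its partners lay above 0, MYC at a log2 fold change of 0.67 (limma with the block, adjusted p = 5.49e-04), while MAX lay at 0.00. Of 26 interferon-stimulated genes listed, 14 lay above 0, with a median log2 fold change of 0.01. The macrophage markers had 14 of 15 above 0, with pair medians of 0.66, −0.05 and −0.03. Endothelial markers had 1 of 3 tested above 0, epithelial markers 0 of 2, muscle markers 0 of 1 and fibroblast markers 3 of 9.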
